A study of Homo sapiens with 3 samples.

Results

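The spliceosomal and 7SK small nuclear RNA (snRNA) genes were examined in GoldCLIP-seq peak lists from HCT116, an established human colorectal carcinoma cell line. Members were all genes that the RefSeq gene table of GRCh38 types as snRNA and places on a chromosome, 149 of 58998 placed genes. Another 7 snRNA genes of the table lie on sequences without a chromosome position and were not analysed here. A peak was given to a gene when its summit, the base of highest signal, lay within the bounds of the gene.

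The series held 3 samples of HCT116 cells, which express HaloTag alone, RPL22-HaloTag or RPL22L1-HaloTag, with 1 library each. RPL22 belongs to the large ribosomal subunit, and RPL22L1 is encoded by a paralogous gene. In GoldCLIP the HaloTag binds covalently to beads, so that RNA crosslinked to the fused protein is recovered under denaturing washes. The peak lists of the fusion libraries are called RPL22 and RPL22L1 for short. Peaks of the library with HaloTag alone were not analysed here, and no background level stands beside any value. The labels do not give a promoter, a clone or the state of the endogenous genes.

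The lists held 154000 and 254413 peaks, numbered without a gap, and the number of reads behind them is unknown. Each group had 1 library, so values are given without a test, and intervals are exact Clopper-Pearson 95% intervals that cover counting error. A peak depends on the amount of an RNA and on its recovery with the fusion, which these lists cannot tell apart. Scores are the authors' own value per peak, and no source states that lists share a scale, so genes were placed by rank within a list, with rank 1 for the highest score. The top 1% of a list ends at rank 1539 for RPL22 and 2541 for RPL22L1.

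Spliceosomal snRNAs are the RNA cores of the particles that remove introns. U1 pairs with the 5′ splice site and U2 with the branch point, U5 holds the exon ends, and U4 and U6 enter as a base-paired duplex from which U6 is released to form the catalytic centre. U11, U12, U4atac and U6atac take the places of U1, U2, U4 and U6 in the minor spliceosome, which removes a rare class of introns. 7SK RNA holds the elongation factor P-TEFb in an inactive state with the proteins HEXIM1 and LARP7. Many of these genes exist in near-identical copies and have numerous pseudogenes, and the handling of reads that match several copies is not given in the sources used here.

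A summit lay in 15 of the 149 snRNA genes for RPL22, or 10.1% (5.74 to 16.1%), and in 29 for RPL22L1, or 19.5% (13.4 to 26.7%). Over all placed genes the share with a summit was 35.4% for RPL22 and 37.1% for RPL22L1. Genes of all types are longer, with a median of 5532.5 bases against 120 for snRNA genes. Both lists held a summit in 12 members, which is 80.0% of the members found for RPL22 and 41.4% of those for RPL22L1. Over all placed genes, which are longer, these shares were 82.2% and 78.4%. The RPL22 share of members was near that value and the RPL22L1 share below it. Among shorter genes they were 70.5% and 52.1% in snoRNA genes and 71.8% and 73.8% in tRNA genes. In annotated snRNA pseudogenes they were 49.1% and 38.7%. Beside these short genes the RPL22 share of members was the highest, and the RPL22L1 share lay between the others. A summit in both lists was found in 8.05% of members and 29.1% of all placed genes. The RPL22 list alone had a summit in 3 members and the RPL22L1 list alone in 17, while 117 had none.

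Where a snRNA gene had a summit, its peak usually ranked high. Of 16 RPL22 summits in members, 11 were in the top 1%, or 68.8% (41.3 to 89.0%). Of 31 RPL22L1 summits, 19 were, or 61.3% (42.2 to 78.2%). The background for this count is 1% of peaks by construction. The best 100 ranks held 6 member peaks for RPL22 and 12 for RPL22L1, and the best 20 held 2 and 6. Flat peaks, 30 bases wide with a central summit, were 2 of the 16 and 2 of the 31, against 64.9% and 77.9% over the whole lists.

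**Figure D1:**
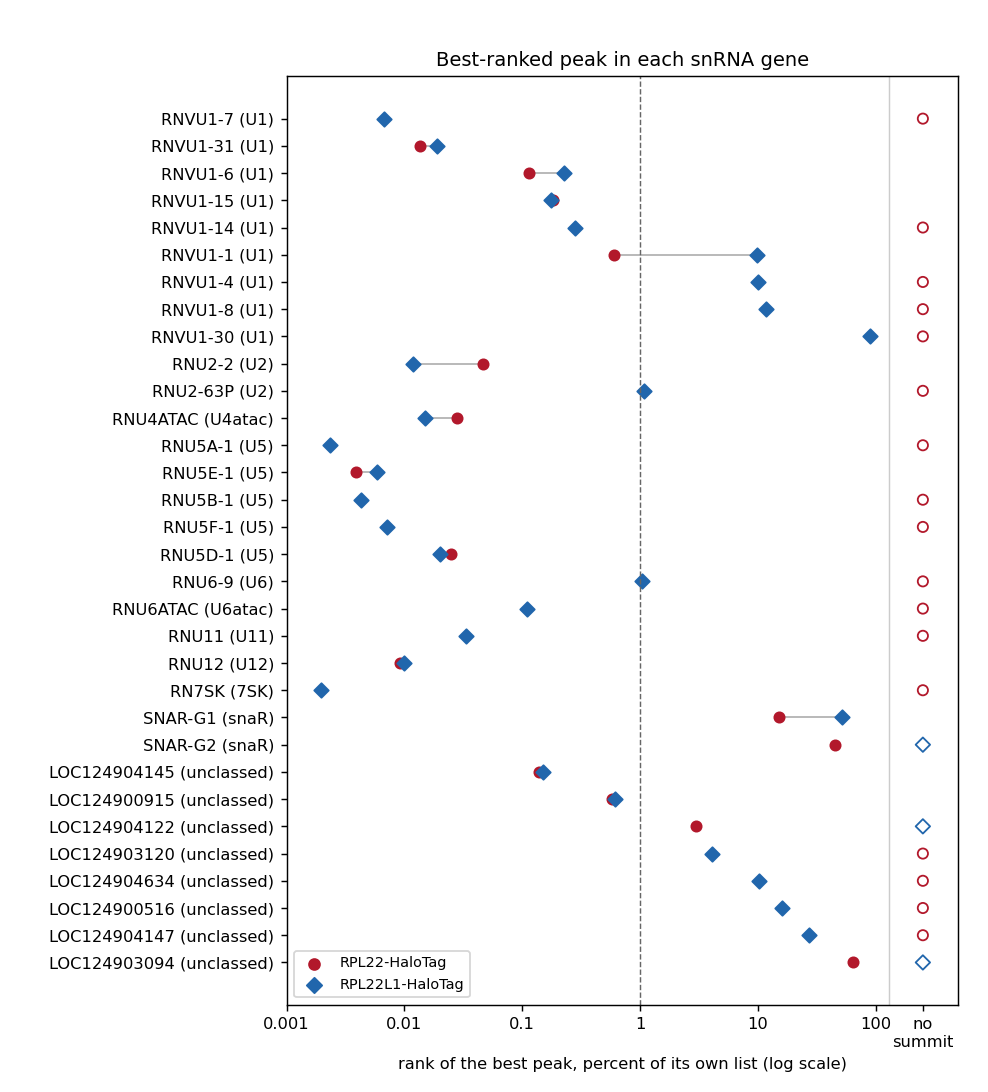
Rank of the best peak in each of the 32 snRNA genes with a summit, as percent of its own list on a log axis, for the RPL22-HaloTag library (circles) and the RPL22L1-HaloTag library (diamonds), with open symbols where a list had no summit and a dashed line at 1%. Grey lines join the values of a gene. RN7SK, RNU5A-1 and RNU5B-1 are far left for RPL22L1 and have no summit for RPL22.

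U5 lies at the centre of the spliceosome and aligns both exons. All 5 U5 genes had a summit for RPL22L1 and each was within the best 51 ranks, and 2 of the 5 had one for RPL22. The shares of genes were 40.0% (5.27 to 85.3%) for RPL22 and 100% (47.8 to 100%) for RPL22L1. Over all placed genes they were 35.4% and 37.1%, so the RPL22 interval includes the background. RNU5E-1 (chr1:11908152-11908272) held rank 6 for RPL22 with a score of 501266 and rank 15 for RPL22L1 with a score of 653433. RNU5D-1 (chr1:44731069-44731170) held rank 38 with a score of 83627 and rank 51 with a score of 153451. In both genes the summit lay on the same base in both lists.

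The other U5 genes had a peak for RPL22L1 alone. RNU5A-1 (chr15:65296051-65296167) held rank 6 with a score of 1852929. RNU5B-1 (chr15:65304677-65304793) held rank 11 with a score of 823043. RNU5F-1 (chr1:44721785-44721902), which lies within ARMH1, held rank 18 with a score of 584799. The nearest RPL22 peak was 26157 bases from RNU5A-1, 34783 from RNU5B-1 and 6344 from RNU5F-1. U5 copies are alike in sequence, and their reads can be divided between genes, so the absence of a peak in a single copy is uncertain.

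RN7SK (chr6:52995620-52995951), the gene of 7SK RNA, had the best rank of all members for RPL22L1 and no summit for RPL22. Its 1 RPL22L1 peak, at chr6:52995917-52995947, had a score of 2698026 and rank 5. It was 31 bases wide, and its summit lay 20 bases from the upper end of the 332-base gene. The nearest RPL22 peak was 7106 bases away. No other gene of the table overlaps RN7SK. It has 293 annotated pseudogenes, and the handling of reads that match several copies is unknown. The absence of a RPL22 summit in RN7SK is therefore uncertain.

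All 4 minor-spliceosome genes had a RPL22L1 summit, and 2 of them a RPL22 summit. Over all placed genes the shares were 37.1% and 35.4%, and the 4 genes are too few for a comparison. RNU12 (chr22:42615244-42615393) held rank 14 with a score of 212366 for RPL22. Its RPL22L1 peak held rank 25 with a score of 380346 and a summit 2 bases away. The RPL22L1 list had another peak at the opposite end of the gene, with a score of 2240 and rank 646. RNU4ATAC (chr2:121530880-121531009), which lies within CLASP1 and CLASP1-AS1, held rank 43 with a score of 70451 and rank 38 with a score of 203180, with summits on the same base. RNU11 (chr1:28648600-28648734) and RNU6ATAC (chr9:134164439-134164564) had a summit for RPL22L1 alone, at ranks 84 and 277 with scores of 58931 and 8042. The nearest RPL22 peaks were 5050 and 6480 bases away.

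U1 RNAs recognise the 5′ splice site, and RNVU1 genes encode variant U1 copies. None of the 4 RNU1 genes had a summit in either list, while 9 of the 17 RNVU1 genes had one for RPL22L1, 4 of which also had one for RPL22. For all U1 genes the shares were 19.0% (5.45 to 41.9%) for RPL22 and 42.9% (21.8 to 66.0%) for RPL22L1. Both intervals include the 35.4% and 37.1% over all placed genes. As for U5, the absence of a peak in a single copy is uncertain. RNVU1-31 (chr1:145465617-145465780) ranked 21 for RPL22 and 48 for RPL22L1, with peaks of 61 and 62 bases that both end at the last base of the gene and scores of 137543 and 165283. RNVU1-6 (chr1:146052081-146052244) ranked 177 and 572 with scores of 9835 and 2530. RNVU1-15 (chr1:144412576-144412740) ranked 278 and 442 with scores of 4324 and 3573. The summits of RNVU1-6 and RNVU1-15 were 1 base apart between lists.

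RNVU1-1 (chr1:148362370-148362533) held 2 summits in each list. The better RPL22 peak scored 751 at rank 924, or the best 0.600% of peaks, and the better RPL22L1 peak scored 316 at rank 24775, or the best 9.74%. The other peaks had ranks 100612 and 81605, with scores of 21 and 174. RNVU1-7 (chr1:148038753-148038916) ranked 17 for RPL22L1 with a score of 597424 and its nearest RPL22 peak was 18249 bases away. RNVU1-14, RNVU1-4, RNVU1-8 and RNVU1-30 also had a summit for RPL22L1 alone, at ranks 708, 25493, 29426 and 226720. The RPL22L1 list placed peaks beside 2 of the RNU1 genes, with summits 31 bases outside RNU1-1 and 60 bases outside RNU1-2, at 23.3% and 38.5% of the list.

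Among U2 genes, whose RNA pairs with the branch point, RNU2-2 (chr11:62841619-62841809) within WDR74 held rank 71 for RPL22 and had rank 30 for RPL22L1. The scores were 34313 and 264126. Its summits were 10 bases apart, near the middle of the gene at 89 and 99 bases from its lower end. RNU2-1 had no summit. It is 1 of 14 snRNA genes of 188 to 192 bases that lie together on chromosome 17, the other 13 with LOC names and no class in the table. In that run LOC124904145 (chr17:43290291-43290481) ranked 213 for RPL22 and 379 for RPL22L1, with the same 75 bases called in both and scores of 7013 and 4804. LOC124904147 had a RPL22L1 summit at rank 68255, and 12 of the 14 had none. The absence of a peak in a single gene of the run is uncertain, as for U5. For the 3 genes of the U2 class the shares were 33.3% (0.840 to 90.6%) for RPL22 and 66.7% (9.43 to 99.2%) for RPL22L1. Over all placed genes, which are longer, they were 35.4% and 37.1%, within both intervals.

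RNU2-63P (chr2:88016358-88016547), which RefSeq types as snRNA in spite of its name, had the widest peak of any member, 185 bases for RPL22L1, with a score of 892 and rank 2742. The nearest RPL22 peak was 11986 bases away. Its sequence is shown because it is the U2 copy whose bases the RefSeq promoter table covers, through the window of LOC105374852. The stretch is chr2:88016389-88016547 of GRCh38, 159 of its 190 bases, printed 5′ to 3′ on the minus strand, with the 31 bases centred on the summit in capitals. The gene table gives no strand.
RNU2-63P: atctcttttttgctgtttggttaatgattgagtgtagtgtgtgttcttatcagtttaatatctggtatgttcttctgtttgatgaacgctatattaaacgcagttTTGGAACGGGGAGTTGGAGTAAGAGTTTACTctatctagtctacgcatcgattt

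U4 pairs with U6 until the spliceosome is activated. None of the 2 U4 genes, RNU4-1 and RNU4-2, had a summit, with an interval of 0 to 84.2% in each list. Of 5 U6 genes 0 had a RPL22 summit (0 to 52.2%) and 1 a RPL22L1 summit (0.505 to 71.6%). These intervals include the 35.4% and 37.1% over all placed genes. The U6 gene was RNU6-9, at rank 2608 with its peak ending at the last base of the gene. RNU6-1 was touched by a RPL22L1 peak of rank 1125 that covers 11 bases of it and has its summit 4 bases outside. RNU6-8 was touched by one of rank 110118 with a summit 22 bases outside. With any shared base counted, 3 U6 genes had a RPL22L1 peak. RNU7-1, whose RNA guides the cut of histone transcripts, had no summit in either list.

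The snaR genes, 28 in number, are primate-specific copies of a small RNA that binds NF90, and RefSeq types them as snRNA although they are not spliceosomal. They held 2 RPL22 summits and 1 RPL22L1 summit, none in the top 1%. The shares of genes were 7.14% (0.877 to 23.5%) for RPL22 and 3.57% (0.0904 to 18.3%) for RPL22L1. Over all placed genes, which are longer, they were 35.4% and 37.1%. SNAR-G1 ranked 23211 for RPL22 with a score of 87 and 131311 for RPL22L1 with a score of 115, with summits 48 bases apart and no shared base. SNAR-G2 ranked 68706 for RPL22 alone, with a score of 33. The SNAR-G2 peak and the RPL22L1 peak of SNAR-G1 are flat. Their sequences are shown because the RefSeq promoter windows of CGB1 and CGB2 cover them and show where the separate peaks fall. SNAR-G1 is given as chr19:49037020-49037145 on the plus strand, 126 of its 128 bases, and SNAR-G2 as chr19:49031669-49031787 on the minus strand. Capitals mark peak bases. In SNAR-G1 the first run is the RPL22L1 peak and the second the RPL22 peak, and in SNAR-G2 the run is the RPL22 peak.
SNAR-G1: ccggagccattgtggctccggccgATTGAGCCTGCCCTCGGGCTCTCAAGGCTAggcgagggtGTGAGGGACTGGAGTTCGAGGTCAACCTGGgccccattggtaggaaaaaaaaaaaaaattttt
SNAR-G2: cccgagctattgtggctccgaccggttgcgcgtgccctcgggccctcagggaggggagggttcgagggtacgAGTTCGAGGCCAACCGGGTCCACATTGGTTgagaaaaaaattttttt
Aligned as printed, 99 of 127 columns were identical, or 78.0%, against 66 of 143 with the other strand of SNAR-G2.

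The remaining 79 members carry LOC names that give no class. Of these 8 had a summit, 4 for RPL22 and 6 for RPL22L1, and 71 had none. The shares were 5.06% (1.40 to 12.5%) for RPL22 and 7.59% (2.84 to 15.8%) for RPL22L1. Over all placed genes, which are longer, they were 35.4% and 37.1%. Besides LOC124904145, 1 gene had a summit in both lists, LOC124900915 within KLHL2 (chr4:165293123-165293309), at ranks 887 and 1547 with scores of 772 and 1180 and summits 1 base apart. LOC124904122 within TEX14 ranked 4556 for RPL22 alone and LOC124903094 within ATXN2 ranked 97474 there. In the RPL22L1 list alone LOC124903120 ranked 10292, LOC124904634 ranked 25725 and LOC124900516, which lies within the pseudogene RNU4-8P, ranked 40463.

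Peaks shared between the lists fell on nearly the same bases. In 8 of the 12 genes with summits in both lists the best summits were at most 1 base apart, and in 10 at most 2. The exceptions were RNU2-2 and SNAR-G1. Ranks of the best peak followed each other over these 12 genes, with a Spearman rho of 0.92, a description of genes from 2 libraries that share a genome and its repeated copies. Of the 16 RPL22 peaks in members 12 overlapped a RPL22L1 peak by at least 1 base, or 75.0% (47.6 to 92.7%), against 17.4% of all RPL22 peaks. Of the 31 RPL22L1 peaks 12 overlapped a RPL22 peak, or 38.7% (21.9 to 57.8%), against 10.6% of all RPL22L1 peaks. In snoRNA genes these shares were 67.8% for RPL22 and 50% for RPL22L1, and in tRNA genes 89.1% and 76.6%. They were 43.6% and 34.8% in annotated snRNA pseudogenes and 32.6% and 25.4% in miRNA genes. The share of members thus lay among those of other short genes in both lists, below that of tRNA genes. It was above that of snoRNA genes for RPL22 and below it for RPL22L1, without a test.

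Shares of overlap at high ranks lay near those of all top peaks. All 11 RPL22 member peaks of the top 1% overlapped a RPL22L1 peak, or 100% (71.5 to 100%), where 80.8% of all RPL22 peaks of the top 1% did. Of the 19 RPL22L1 member peaks of the top 1% 10 overlapped a RPL22 peak, or 52.6% (28.9 to 75.6%), where 56.8% of all such peaks did. Both intervals include the share over all top peaks of that list. The 9 without overlap lay in RN7SK, RNU5A-1, RNU5B-1, RNU5F-1, RNVU1-7, RNVU1-14, RNU11, RNU6ATAC and the lower end of RNU12. Outside RNU12, the nearest RPL22 peak to any of these genes was at least 5050 bases away.

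Summit positions are described by class without a test, and several classes held only 1 or 2 summits. The outer zones, the 25% of the gene at each end, together make up 50% of its length. They held 7 of 16 RPL22 summits in members, or 43.8% (19.8 to 70.1%), and 21 of 31 RPL22L1 summits, or 67.7% (48.6 to 83.3%). Over all genes the shares were 55.7% and 55.9%, which lie within these intervals. Every summit lay in an outer zone in U4atac, U5, U6, U6atac, U11, U12 and 7SK genes, which held 4 RPL22 and 12 RPL22L1 summits. These classes are put together here because of that position, so their count is a description. Their distance from the nearer end ranged from 7 to 17 bases for RPL22, with a median of 15, and from 7 to 29 bases for RPL22L1, with a median of 16.5. In RNU5A-1, RNU5B-1, RNU5E-1, RNU11, RNU12, RNU4ATAC, RNU6-9 and RN7SK the best summit was at the upper end, and in RNU5D-1, RNU5F-1 and RNU6ATAC at the lower end. The table gives no strand, so the ends are not named here as 5′ or 3′.

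In the other classes summits also lay towards the middle. In U1 genes 1 of 5 RPL22 summits and 6 of 10 RPL22L1 summits lay in the outer zones, and in U2 genes 0 of 1 and 0 of 2. In snaR genes 0 of 2 and 0 of 1 did, and in unclassed genes 2 of 4 and 3 of 6. The unclassed LOC124904145, in the run with RNU2-1, had its RPL22 and RPL22L1 summits at bases 7 and 6 from its lower end. Summits in snoRNA genes lay in the outer zones in 74.1% (66.1 to 81.1%) and 64.1% (56.8 to 70.8%) of cases, and those in tRNA genes in 77.3% (68.3 to 84.7%) and 75.7% (66.5 to 83.5%).

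**Figure D2:**
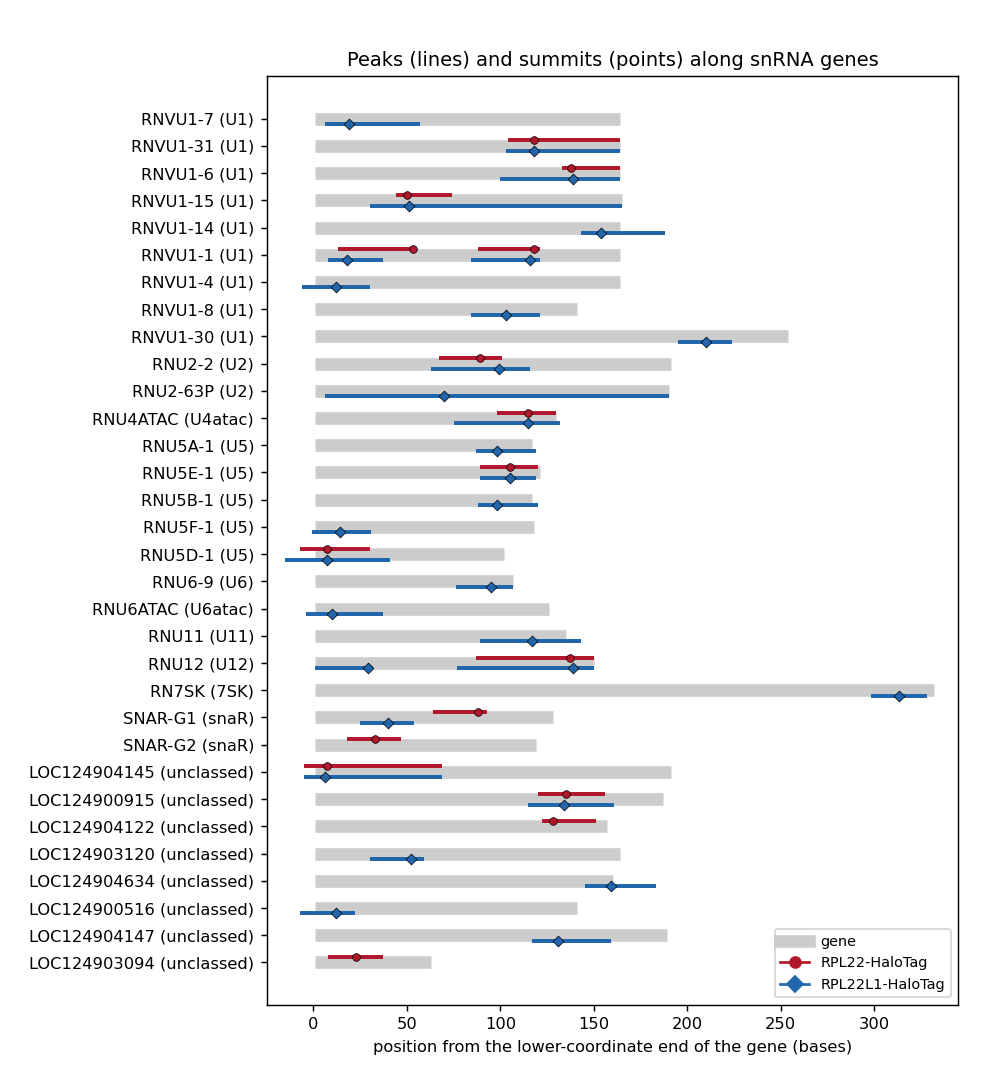
Peaks as lines and summits as points along the 32 snRNA genes with a summit, in bases from the lower-coordinate end of each gene (grey), with the RPL22-HaloTag library above and the RPL22L1-HaloTag library below the middle of each gene. Summits of U5, U11, U12, U4atac and 7SK genes sit within 29 bases of an end, and those of RNU2-2 near the middle.

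Peaks in members had a median width of 33.5 bases for RPL22 and 39 for RPL22L1, against 30 over each whole list. They ranged from 30 to 75 and from 30 to 185 bases. An edge of the peak came within 3 bases of a gene end in 5 of the 16 RPL22 peaks and 12 of the 31 RPL22L1 peaks. These are 31.25% and 38.7%, near the 30.8% and 34.4% in snoRNA genes and above the 16.4% and 17.8% in tRNA genes. Over all genes, which are longer, the shares were 0.252% and 0.178%. Peaks reached past a gene end in 2 and 12 cases, by at most 8 and 24 bases.

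Genes of other small RNAs were set beside them, without a test. A summit lay in 11.7% (9.89 to 13.6%) of 1193 snoRNA genes for RPL22 and in 15.8% (13.7 to 17.95%) for RPL22L1. For 451 tRNA genes, mitochondrial ones included, the shares were 24.4% (20.5 to 28.6%) and 23.7% (19.9 to 27.9%). The share of summits in the top 1% was 58.7% and 59.9% in snoRNA genes and 65.5% and 64.5% in tRNA genes. The 1913 miRNA genes were lower in both measures. A summit lay in 2.30% (1.68 to 3.08%) and 3.66% (2.86 to 4.60%) of them, and 11.6% and 9.86% of their peaks were in the top 1%. For the share of genes with a summit, the snRNA interval overlapped that of snoRNA genes in both lists, while it lay below that of tRNA genes for RPL22 and overlapped it for RPL22L1.

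**Figure D3:**
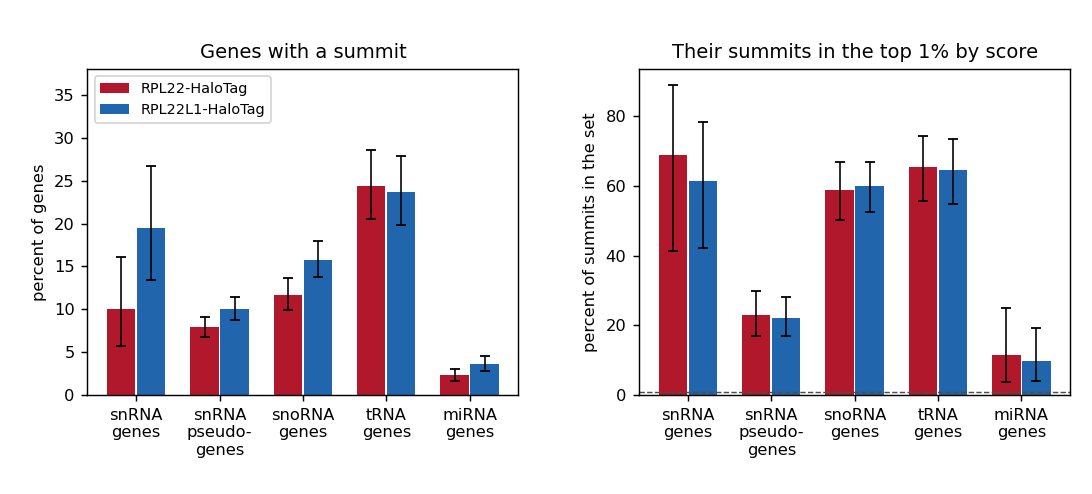
Left, percent of genes with a summit, and right, percent of the summits in each set that are in the top 1% of their list by score, for snRNA genes (149), annotated snRNA pseudogenes (2110), snoRNA genes (1193), tRNA genes (451) and miRNA genes (1913). Bars are the RPL22-HaloTag and RPL22L1-HaloTag libraries, error bars are exact Clopper-Pearson 95% intervals, and the dashed line marks 1%. The snRNA, snoRNA and tRNA bars on the right all lie between 58.7% and 68.8%, those of the pseudogenes at 22.9% and 22.2%, and those of miRNA genes at 11.6% and 9.86%.

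Annotated pseudogenes of snRNAs, copies that arose mostly through reverse transcription, numbered 2110. A summit lay in 167 of them for RPL22, or 7.91% (6.80 to 9.15%), and in 212 for RPL22L1, or 10.0% (8.80 to 11.4%). The highest were RNU5E-6P at rank 11 for RPL22 and 9 for RPL22L1, RNU5E-4P at ranks 32 and 19, RNU1-88P at rank 86 for RPL22 and RNU5A-8P at rank 75 for RPL22L1. The RNU5E-6P and RNU5E-4P peaks overlapped between lists, and RNU5A-8P, like RNU5A-1, had no overlapping RPL22 peak.

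For pseudogenes of 7SK, U4 and U6 the intervals of the shares for RPL22 and for RPL22L1 did not overlap, and the difference was not tested. The same genes are counted in both lists, a pairing that separate intervals leave out. The RPL22L1 list also held more peaks in all, 254413 against 154000, and the shares are not adjusted for this. All of these shares lie below the 35.4% and 37.1% over all placed genes, which are longer. Of 293 RN7SK pseudogenes 61 had a RPL22 summit, or 20.8% (16.3 to 25.9%), and 33 a RPL22L1 summit, or 11.3% (7.88 to 15.5%), with 23 in both. Top 1% peaks numbered 13 and 6, and peaks that were not flat 54 and 23. RN7SK itself went the other way, with a peak for RPL22L1 alone. Of 89 U4 pseudogenes 2 had a RPL22 summit, or 2.25% (0.273 to 7.88%), and 19 a RPL22L1 summit, or 21.3% (13.4 to 31.3%), with 1 in both. Of the U4 peaks 0 and 7 were in the top 1%, while neither U4 gene had a summit. Of 1278 U6 pseudogenes 50 had a RPL22 summit, or 3.91% (2.92 to 5.13%), and 85 a RPL22L1 summit, or 6.65% (5.35 to 8.16%). Of the U6 peaks 2 and 3 were in the top 1%, and 21 of 51 and 33 of 86 were flat. These classes were singled out after their values were seen.

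**Figure D4:**
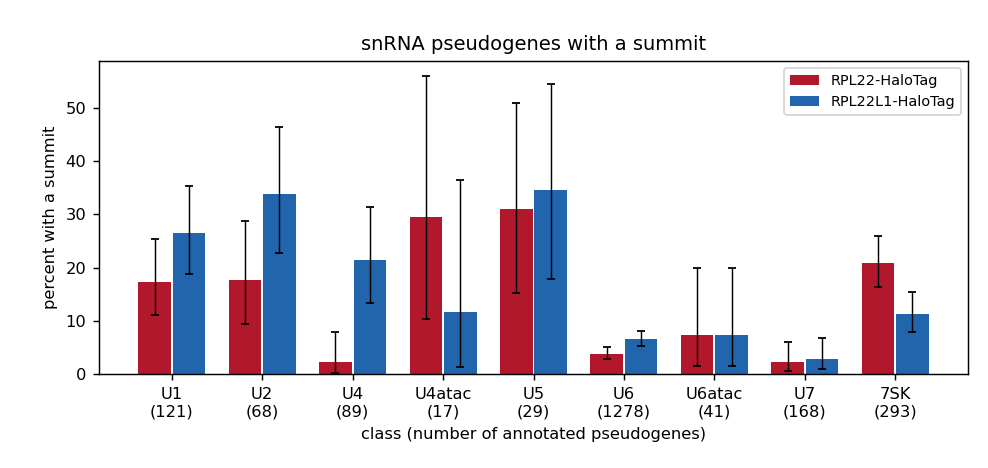
Percent of annotated snRNA pseudogenes with a summit by class, with the number of pseudogenes under each class, in the RPL22-HaloTag and RPL22L1-HaloTag libraries. Error bars are exact Clopper-Pearson 95% intervals. RPL22 exceeds RPL22L1 in the 7SK class (20.8% and 11.3%), and RPL22L1 exceeds RPL22 in the U4 class (21.3% and 2.25%).

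Genes of the proteins that join these RNAs were counted from a list of 83 genes for Sm and LSm proteins, snRNP proteins, 7SK partners and snRNA biogenesis factors. A summit lay in 77 of them for RPL22, or 92.8% (84.9 to 97.3%), and in 78 for RPL22L1, or 94.0% (86.5 to 98.0%), with 76 in both. Over all protein-coding genes the share was 68.8% and 70.3%. Their median length was 17248 bases against 24449. Expression, on which a peak also depends, was not measured here. The list of 83 genes was chosen with earlier results of these data known, so its shares are a description.

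In both lists the 2 best ranked of these genes had their best summit also within the bounds of a snoRNA gene. SF3B3, a gene for a U2 protein, held rank 55 for RPL22 and 41 for RPL22L1 within SNORD111B. SNRPB, the gene of a core Sm protein, held ranks 344 and 205 within SNORD119. Next came SF3B2, at rank 877 for RPL22, and SF3B1, at rank 295 for RPL22L1, both parts of the U2 particle that binds the branch point. No summit in either list lay in PRPF8, PRPF31, LSM2 or SMN1, the last of which has a near-identical copy. Of the 7 genes for 7SK partners 6 had a summit for RPL22 and 7 for RPL22L1. CDK9, the kinase of P-TEFb, had 0 RPL22 and 5 RPL22L1 summits, and HEXIM1, its inhibitor, had 2 and 4. LARP7, which binds the 3′ end of 7SK RNA, had 9 and 25, and MEPCE, which caps it, had 2 and 5. HEXIM2, a paralog of HEXIM1, had 6 RPL22 summits and 4 RPL22L1 summits. The cyclin genes CCNT1 and CCNT2 had 9 and 7 RPL22 summits and 31 and 34 RPL22L1 summits. In this list of genes the median number of summits was 5 for RPL22 and 9 for RPL22L1, and the RPL22L1 list held more peaks in all.

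The groups of proteins are small, and each is given by its count beside the 68.8% and 70.3% of all protein-coding genes. All 8 Sm genes, all 7 genes for proteins of the minor spliceosome and all 4 for U7 proteins had a summit in both lists. Of 12 U2 protein genes 12 had one for RPL22 and 11 for RPL22L1, the exception being SF3B5, with 3 RPL22 summits and 0 RPL22L1 summits. Of 3 U1 protein genes 2 and 3 had one, since SNRPC had 0 and 9 summits, and the RPL22 share of 66.7% (9.43 to 99.2%) is near the background. Of 8 U5 protein genes 7 had a summit in both lists, of 13 U4/U6 protein genes 11, and of 21 biogenesis genes 20. The intervals for U5 (47.3 to 99.7%) and U4/U6 proteins (54.6 to 98.1%) include the background. So do those for Sm (63.1 to 100%), minor-spliceosome (59.0 to 100%) and U7 genes (39.8 to 100%). The intervals for 7SK partners (42.1 to 99.6% and 59.0 to 100%) include it as well. For U2 genes the RPL22 interval (73.5 to 100%) lies above it, while the RPL22L1 interval (61.5 to 99.8%) includes it. The interval for biogenesis genes (76.2 to 99.9%) lies above it in both lists. No group was tested, and the genes were chosen with earlier results of these data known.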

How the data were processed

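The 2 deposited peak lists used here come from 1 library with RPL22-HaloTag and 1 with RPL22L1-HaloTag, grouped by the genotype in the labels. Each gives per peak a position, a whole-number score made by the authors and the distance from the peak start to the summit. The deposited score has no stated scale. The submitters' processing notes name hg38, cutadapt 4.8, STAR 2.7.10a, UMI-tools 1.1.5 and MACS3 3.0.0a6 without their roles. The control, the settings and the treatment of reads with several matches are not given in the sources used here, and the other value columns hold 0.

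Summits were matched to gene bounds of the RefSeq table of GRCh38.p14, which holds no exon or strand. Classes came from gene symbols, since the table holds no descriptions, which had been planned as a further source. Overlap meant at least 1 shared base. Sequences are from the RefSeq promoter table of GRCh38.p14, in which no member has a window of its own and windows of other genes touch 4 members. Members and lists were chosen with earlier results of these data known. All members with a summit are named, and of the snRNP genes and pseudogenes the 3 best ranked per list, with additions chosen after their values were seen. Depth is unknown. Python 3.11.15, pandas 2.3.3, scipy 1.17.1 and Biopython 1.88 were used, and assignment and overlap were tested on simulated data.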

Additional observations from a re-analysis of the deposited data

How the results depend on the processing

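Of 69 alternative values for the counts and shares over the snRNA genes and the list of snRNP protein and 7SK partner genes, 67 stayed within 1.5-fold of a count or within the interval of a share. The other 2 are the shares of member summits near the top of the list, which with the top 0.1% in place of the top 1% became 37.5% for RPL22 and 38.7% for RPL22L1, as a stricter limit must lower them. Members with a summit ranged from 13 to 15 for RPL22 and from 27 to 31 for RPL22L1, and those in both from 11 to 12. The overlapping share ranged from 62.5 to 85.7% of RPL22 peaks and from 32.3 to 41.4% of RPL22L1 peaks. Of 604 values for single genes and classes 14 moved, 12 of them down. Among the 604, a count of 0 could not move under settings that only remove peaks. The merging of peaks within 10 bases joined none, so it says nothing about stability, and lists of equal size leave the RPL22 list as it is. Values from these settings are part of both the 69 and the 604. No paired analysis was possible because each group has 1 library, and no replicate could be left out. Unknown depth and the unknown treatment of reads with several matches limit every absence of a peak given here.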
